A study of Homo sapiens with 9 samples.

Results

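Mitotic kinases, kinesins and centromere proteins build and run the machinery that separates chromosomes. They are described here in a human lung carcinoma cell line grown on attachment plates and on low-attachment plates. The genes were taken by symbol: every symbol starting with CENP (centromere proteins, 17 genes), every symbol of KIF followed by a digit (kinesins, 40 symbols), and 21 spelled-out genes of mitosis and proliferation, of which 19 carried a name on the array. TPX2 and UBE2C are the spelled-out genes that name no probe set in the annotation used here. The rule gave 79 probe sets for 76 genes, of 53617 probe sets in all, 16098 probe sets with a gene name and 14884 named genes. Of the 76 genes, 71 were bright enough to be tested. KIF5A, KIF5C, KIF6, KIF25 and the antisense transcript KIF9-AS1 stayed at or below 29.9 on the 8 arrays used and were not tested.

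The line is A549, derived from non-small cell lung cancer. All cells were kept for 5 days in DMEM with 10% fetal bovine serum in 96-well plates. They were grown on normal attachment plates in normal medium (the control), on low-attachment plates in normal medium, or on low-attachment plates in medium with FP001 at 0.015% w/v, the other wells receiving Milli-Q water. What FP001 is was not given in the sources used here. Each condition has 3 samples, each on its own 1-colour array hybridised with biotin-labelled cRNA from 100 ng of total RNA. Nothing in the labels tells whether the 3 samples of a condition were separate cultures, and p-values then rest on a spread between arrays that may be technical only.

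As background, cyclins A and B with the kinase CDK1 drive entry into mitosis, and the Aurora and Polo kinases order the steps of spindle assembly. The inner plate of the kinetochore, the constitutive centromere network, sits on nucleosomes that hold the histone variant CENPA, and the NDC80 complex links it to microtubules. The kinases TTK and BUB1 run the checkpoint that holds back anaphase, which CDC20 then triggers through the anaphase-promoting complex. Kinesins are motors on microtubules: one set works in the spindle and at cytokinesis, while others carry vesicles, organelles and the parts of cilia. Many genes of the first kind are transcribed in G2 and M phase from promoters with a cell cycle homology region (CHR) and CCAAT boxes, which are bound by the DREAM and MuvB complexes and by NF-Y.

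Attachment replicate 1 was left out: its highest rank correlation with any other array was -0.00191, against 0.961 to 0.985 among the other 8 arrays, and its median intensity was 15.8 against 23.3 to 24.1. The attachment group therefore has 2 arrays and each low-attachment group has 3. Low-attachment replicate 1 stands apart for the genes described here. It was the lowest of its group for 56 of the 71 tested genes (78.9%, against 40.1% of all 10916 genes tested), so the counts and medians that it moves are also given without it. Of 13 epithelial markers 8 were named, and 7 of these, including KRT8, KRT18, KRT7, KRT19 and EPCAM, were at or above the array median on all 8 arrays. The 8 summed to 4289 to 4441 on attachment, 4506 to 4846 on low attachment and 5217 to 5787 with FP001. Of other cell types, 2 of 7 leukocyte markers were named (CD14, LYZ; summed 137 to 182, 201 to 278 and 178 to 327 in the same order), 2 of 7 fibroblast markers (DCN, LUM; 31.6 to 96.7, 27.9 to 250.4 and 82.7 to 440.1) and 3 of 5 endothelial markers (PECAM1, VWF, KDR; 46.1 to 52.3, 51.2 to 55.9 and 55.8 to 71.5). DCN and KDR were below the array median on each of the 8 arrays, and CD14 and LUM above it. The part of these markers in the results was not tested.

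The promoters are shown first, since the division genes share letters in them that the choice by symbol did not use. Sequences were taken from RefSeq (GRCh38.p14), 250 bases before to 50 after the start of transcription, and 62 of the 76 genes had an entry. Both strands were searched for TTTGAA, the core of the CHR, which reads TTCAAA on the other strand. They were also searched for the CCAAT box, which reads ATTGG on the other strand, and for the E2F site letters TTTGGCGC or TTTCGCGC. None of these letter strings contains another. The windows below stand for the kinds of gene the results turn on: a mitotic kinase, a spindle protein, a cyclin, a pair of centromere proteins and a transport kinesin. AURKA, TTK, BIRC5, FOXM1 and KIF27 were among the genes without an entry. PLK1 is shown as the kinase because AURKA and TTK, which fell on low attachment, could not be. It holds both TTTGAA and CCAAT, as did 3 of 8 kinases and cyclins with an entry. Capitals mark TTTGAA and CCAAT on either strand, and each sequence runs 5′ to 3′ on the strand of its gene.
PLK1: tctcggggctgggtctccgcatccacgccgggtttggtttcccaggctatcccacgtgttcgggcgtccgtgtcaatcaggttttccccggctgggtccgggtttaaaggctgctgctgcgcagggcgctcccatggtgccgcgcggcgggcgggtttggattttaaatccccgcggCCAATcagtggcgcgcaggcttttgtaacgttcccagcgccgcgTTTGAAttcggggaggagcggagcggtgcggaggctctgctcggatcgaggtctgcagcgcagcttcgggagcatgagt
NUSAP1: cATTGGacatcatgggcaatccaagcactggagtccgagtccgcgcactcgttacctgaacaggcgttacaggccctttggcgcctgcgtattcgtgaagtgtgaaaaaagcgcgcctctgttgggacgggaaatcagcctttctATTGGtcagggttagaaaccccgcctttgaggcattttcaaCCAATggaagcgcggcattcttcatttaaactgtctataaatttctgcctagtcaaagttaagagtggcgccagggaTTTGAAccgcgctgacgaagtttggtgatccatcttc
CCNA2: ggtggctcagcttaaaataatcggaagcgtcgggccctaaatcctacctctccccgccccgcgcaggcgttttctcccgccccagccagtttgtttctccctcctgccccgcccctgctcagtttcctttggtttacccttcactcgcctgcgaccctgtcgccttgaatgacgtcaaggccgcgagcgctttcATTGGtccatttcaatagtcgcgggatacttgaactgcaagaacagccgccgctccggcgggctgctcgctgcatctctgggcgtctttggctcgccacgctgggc
CENPN: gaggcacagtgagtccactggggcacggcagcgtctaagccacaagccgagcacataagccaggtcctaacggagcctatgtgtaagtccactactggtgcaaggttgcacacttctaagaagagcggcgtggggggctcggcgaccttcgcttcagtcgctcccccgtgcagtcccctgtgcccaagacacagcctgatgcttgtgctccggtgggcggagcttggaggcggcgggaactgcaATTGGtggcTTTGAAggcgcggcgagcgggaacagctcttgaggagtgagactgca
CENPU: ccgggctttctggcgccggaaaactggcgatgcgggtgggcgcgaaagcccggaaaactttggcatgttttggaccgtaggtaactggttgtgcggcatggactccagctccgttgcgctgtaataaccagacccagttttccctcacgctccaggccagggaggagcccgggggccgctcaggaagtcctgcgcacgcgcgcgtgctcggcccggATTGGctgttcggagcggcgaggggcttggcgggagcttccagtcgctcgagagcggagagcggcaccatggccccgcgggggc
KIF13A: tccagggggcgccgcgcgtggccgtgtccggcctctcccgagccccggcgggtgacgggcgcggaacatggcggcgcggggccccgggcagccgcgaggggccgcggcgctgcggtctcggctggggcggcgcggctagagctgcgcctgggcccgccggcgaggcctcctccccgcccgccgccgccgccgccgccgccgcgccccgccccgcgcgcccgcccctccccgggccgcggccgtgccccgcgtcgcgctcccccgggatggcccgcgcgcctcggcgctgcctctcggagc

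These windows lie at chr16:23678639-23678938 (plus strand), chr15:41332631-41332930 (plus), chr4:121823834-121824133 (minus), chr16:81006964-81007263 (plus), chr4:184734047-184734346 (minus) and chr6:17987586-17987885 (minus). In PLK1, CCAAT stands 73 bases before the start and TTTGAA follows 29 bases before it. In NUSAP1, a microtubule binding protein of the spindle, CCAAT occurs 3 times and TTTGAA begins at base 14 after the start. In CENPN, ATTGG and TTTGAA lie next to each other across the start site. In CCNA2 (cyclin A) and CENPU, CCAAT stands on the strand opposite to that of the gene, printed as ATTGG, without an exact TTTGAA. The KIF13A window holds neither.

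TTTGAA was present in the window of 18 of 26 division genes (69.2%), a set made of the mitotic kinases and cyclins, the spindle and proliferation genes and the division kinesins. It was present in 8 of 11 division kinesins, 6 of 7 spindle and proliferation genes and 4 of 8 kinases and cyclins. Of the centromere network, 3 of 11 genes held it (27.3%), and of the transport kinesins 1 of 18 (5.56%), namely KIF5B. Among all tested genes with an entry the share was 13.5%, and among all 27305 genes with a promoter entry it was 18.2%. CCAAT was in 84.6% of the division genes, 72.7% of the centromere network and 38.9% of the transport kinesins, against 41.4% of all tested genes. Both motifs together were in 57.7% of the division genes and 5.59% of all tested genes. The E2F letters were rare: 11.5% of the division genes held them (CDK1, KIF15 and NUSAP1), and CENPU held them too. The share was 2.12% of all tested genes and 1.40% of all genes with a promoter entry. A match describes letters and shows no binding.

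On low attachment without FP001, the division genes read lower than on attachment and the transport kinesins were split in sign. AURKA, TTK, CENPW, KIF13A and KIF27 fell, and none of the 71 tested genes rose. That is 5 of 71 (7.04%), beside a background of 10.1% of all tested genes called (4.31% higher, 5.76% lower). A gene was called at an adjusted p under 0.05 in limma, a linear model fitted to log2 intensity over the 8 arrays, with Benjamini-Hochberg adjustment over 10916 genes. The share called is thus no higher among these genes than among all genes. The median log2 difference over the 71 genes was -0.18, against 0.01 for all genes tested, and 22 of 71 were above 0 (31.0%, against 51.5% of all genes). All arrays of the low-attachment group lay below both attachment arrays for 29 genes (40.8%, background 23.4%), and above both for 7 (9.86%, background 22.2%). At an unadjusted p under 0.05, 20 genes were lower and 3 higher (28.2% and 4.23%), beside 1569 lower (14.4%) and 1308 higher of the 10916 genes tested. After quantile normalization of the arrays these became 12 lower and 5 higher (16.9% and 7.04%, all genes 11.3% and 15.4%). In RNA from whole cultures, fewer dividing cells and less RNA per dividing cell cannot be told apart.

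Low-attachment replicate 1 carried part of this shift. Without it the median was -0.07, 24 of 71 genes were above 0, 10 were lower at an unadjusted p under 0.05 (14.1%, all genes 11.5%), and AURKA (adjusted p = 0.0171, limma), KIF13A (0.0298) and TTK (0.0491) were the 3 genes called. Without low-attachment replicate 3, the 3 calls were AURKA, KIF13A and PLK1. In each of these fits 3 calls are 4.23% of the 71 genes, beside 6.76% of all genes without replicate 1 and 6.62% without replicate 3. Without attachment replicate 2 the median log2 difference over the 71 genes was -0.24 (all genes 0.003). Without attachment replicate 3 it was -0.09 (all genes 0.001). The 5 calls were lost in both of the last fits, and calls became rarer among all genes tested too. In both, the lone attachment array is assumed to vary like the arrays of the other groups. The 5 called genes read lower on low attachment in every fit that left out 1 array.

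**Figure D1:**
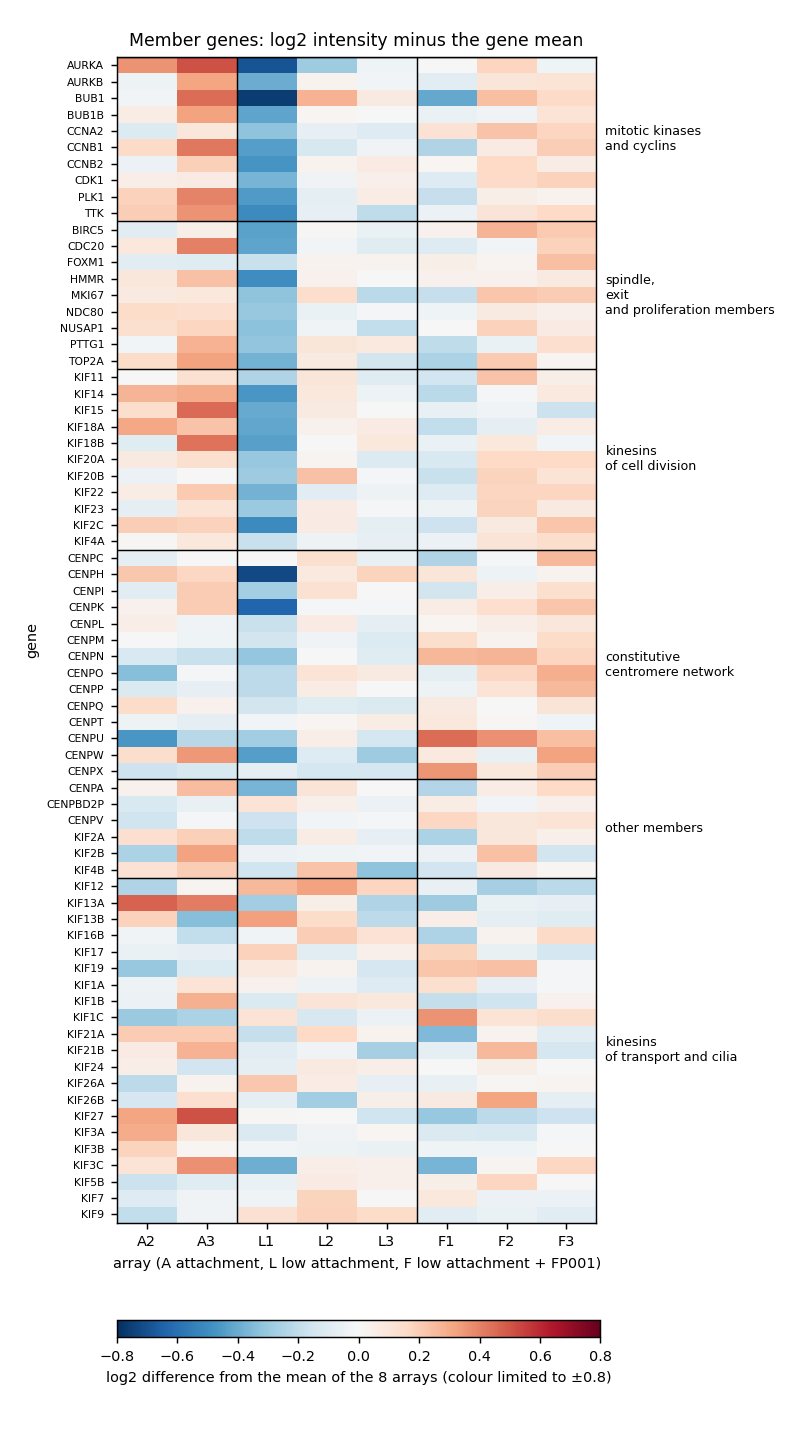
Each row is a tested gene and each column an array; colour shows log2 intensity minus the mean of that gene over the 8 arrays, limited to ±0.8, with genes grouped by role. The column of low-attachment replicate 1 (L1) is blue through the division genes, whose mean deviation there is -0.40, and the transport kinesins show no such block.

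The mitotic kinases and cyclins read lower on low attachment for 10 of 10 genes, with a median log2 difference of -0.34. Of them 2 fell (background 5.76%). AURKA encodes Aurora kinase A, which matures centrosomes and builds the spindle poles. Its intensity was 262 and 291 on the attachment arrays, 127, 167 and 199.8 on low attachment, and 205, 230.0 and 199 with FP001. Both attachment arrays lay above all 6 low-attachment arrays, and low-attachment replicate 1 was lowest. The log2 difference on low attachment was -0.77 ± 0.16 (SE), a 1.71-fold fall with adjusted p = 0.0150 in limma. With FP001 it was -0.39 ± 0.16 against attachment (adjusted p = 0.116, limma), which did not pass.

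TTK (MPS1), the kinase that starts the spindle checkpoint, read 310.1 and 346 on the attachment arrays, 189.7, 259 and 235 on low attachment, and 262, 291 and 302 with FP001. The groups did not overlap: attachment was highest, FP001 in between and low attachment lowest. The fall on low attachment was -0.54 ± 0.13 on the log2 scale (adjusted p = 0.0268, limma). With FP001 the difference from attachment was -0.20 ± 0.13 (adjusted p = 0.286, limma). The call on low attachment was lost without low-attachment replicate 3 (adjusted p = 0.0540, limma) and without either attachment array (0.0884 without replicate 2, 0.164 without replicate 3).

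PLK1, the Polo kinase of mitotic entry and cytokinesis, had intensities of 1354 and 1569 on the attachment arrays, 869, 1127 and 1242 on low attachment, and 1047, 1228 and 1214 with FP001. CCNB1, cyclin B1, the partner of CDK1, had 371 and 447 on the attachment arrays, 245, 304 and 326 on low attachment, and 282, 348 and 382 with FP001. For both genes the attachment arrays lay above all 3 low-attachment arrays, but neither passed the threshold: the log2 differences were -0.45 ± 0.14 and -0.49 ± 0.15, each with adjusted p = 0.0681 in limma. BUB1B, whose product holds back CDC20, differed by -0.32 ± 0.14 (adjusted p = 0.178, limma). BUB1, the checkpoint kinase that marks the centromere, read 271 and 374 on the attachment arrays, 163, 333 and 289 on low attachment, and 207, 324 and 305 with FP001. Replicate 1 was the lowest of both low-attachment groups, and the groups overlapped. The difference on low attachment was -0.35 ± 0.28 (adjusted p = 0.474, limma).

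AURKB, the kinase of the chromosomal passenger complex, read 574, 476 and 535 on average on attachment, low attachment and FP001. CDK1 itself read 328, 289.6 and 333, and CCNB2, cyclin B2, read 291, 254 and 292, in the same order. Their log2 differences on low attachment were -0.27, -0.18 and -0.20, none called. CCNA2, cyclin A2, which acts from S phase on, was the one gene of the group with higher readings on all 3 FP001 arrays than on both attachment arrays. Its intensity was 494 and 568 on the attachment arrays, 427, 510.1 and 498 on low attachment, and 579, 627 and 602 with FP001, and its difference between FP001 and attachment was 0.18 ± 0.10 (adjusted p = 0.217, limma).

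**Figure D2:**
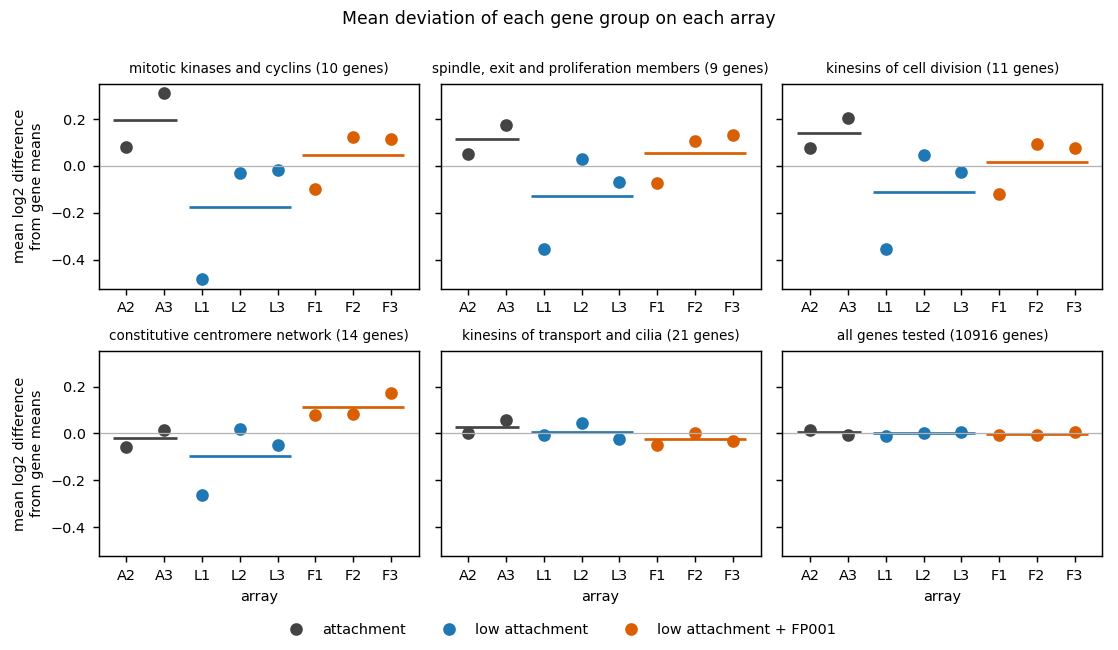
Each point is 1 array; the vertical axis gives the mean log2 difference from the gene means over the genes of a group, and horizontal lines are group means. For mitotic kinases and cyclins, low-attachment replicate 1 is at -0.48 and the other low-attachment arrays at -0.03 and -0.02, while the attachment arrays are at 0.08 and 0.31; over all genes tested every array is within 0.02 of 0.

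Of the spindle, exit and proliferation genes, 8 of 9 read lower on low attachment (median log2 difference -0.26). None was called by limma, with 5 lower at an unadjusted p under 0.05 (all genes 14.4%). NUSAP1 came closest: its intensity was 801 and 826 on the attachment arrays, 585, 718 and 639 on low attachment, and 732, 834 and 768 with FP001, and its difference on low attachment was -0.33 ± 0.10 (adjusted p = 0.0567, limma). All 3 low-attachment arrays lay below both attachment arrays, and the FP001 arrays overlapped with attachment. CDC20, the activator of the anaphase-promoting complex, differed by -0.42 ± 0.14 (adjusted p = 0.0854, limma). TOP2A, the topoisomerase that untangles sister chromatids, differed by -0.39 ± 0.15 and HMMR, a spindle protein, by -0.32 ± 0.14 (adjusted p = 0.125 and 0.188, limma).

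NDC80, the microtubule hook of the kinetochore, read 94.7, 78.9 and 87.6 on average on attachment, low attachment and FP001. MKI67, the proliferation marker Ki-67, read 957, 826 and 959 in the same order, a log2 difference of -0.21 ± 0.15 on low attachment (adjusted p = 0.398, limma), and its groups overlapped. BIRC5 (survivin), of the chromosomal passenger complex, and PTTG1 (securin) differed by -0.14 and -0.18. PTTG1 was dim, at 24.1 to 36.4 across arrays. FOXM1, the transcription factor of G2 and M phase genes, was the exception in sign, with 0.05 ± 0.10 (adjusted p = 0.780, limma).

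The division kinesins were lower for 10 of 11 genes (median log2 difference -0.29), with none called by limma. At an unadjusted p under 0.05, 5 were lower (all genes 14.4%). KIF14, a kinesin of cytokinesis, read 258 and 262 on the attachment arrays, 155, 227 and 208 on low attachment, and 184, 212 and 226 with FP001. All 6 low-attachment arrays were below both attachment arrays, yet the differences of -0.42 ± 0.15 without FP001 and -0.33 ± 0.15 with it were not called (adjusted p = 0.106 and 0.146, limma). KIF15, a spindle motor that works beside KIF11, and KIF18A, which dampens chromosome movement at metaphase, showed the same order. Their differences were -0.41 and -0.37 without FP001, and -0.38 and -0.34 with it.

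KIF2C, which takes microtubules apart at centromeres, read 235, 182 and 212 on average on attachment, low attachment and FP001 (log2 difference -0.36 ± 0.16 without FP001). KIF22, which pushes chromosome arms, and KIF18B, which trims astral microtubules, differed by -0.30 and -0.29. KIF20A and KIF23, which build the central spindle, differed by -0.23 and -0.10. KIF11 (Eg5), the motor that pushes spindle poles apart, differed by -0.14 ± 0.12, with mean intensities of 918, 832 and 905 on attachment, low attachment and FP001. KIF4A and KIF20B differed by -0.14 and 0.00, the latter being the 1 gene of the 11 not below 0.

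**Figure D3:**
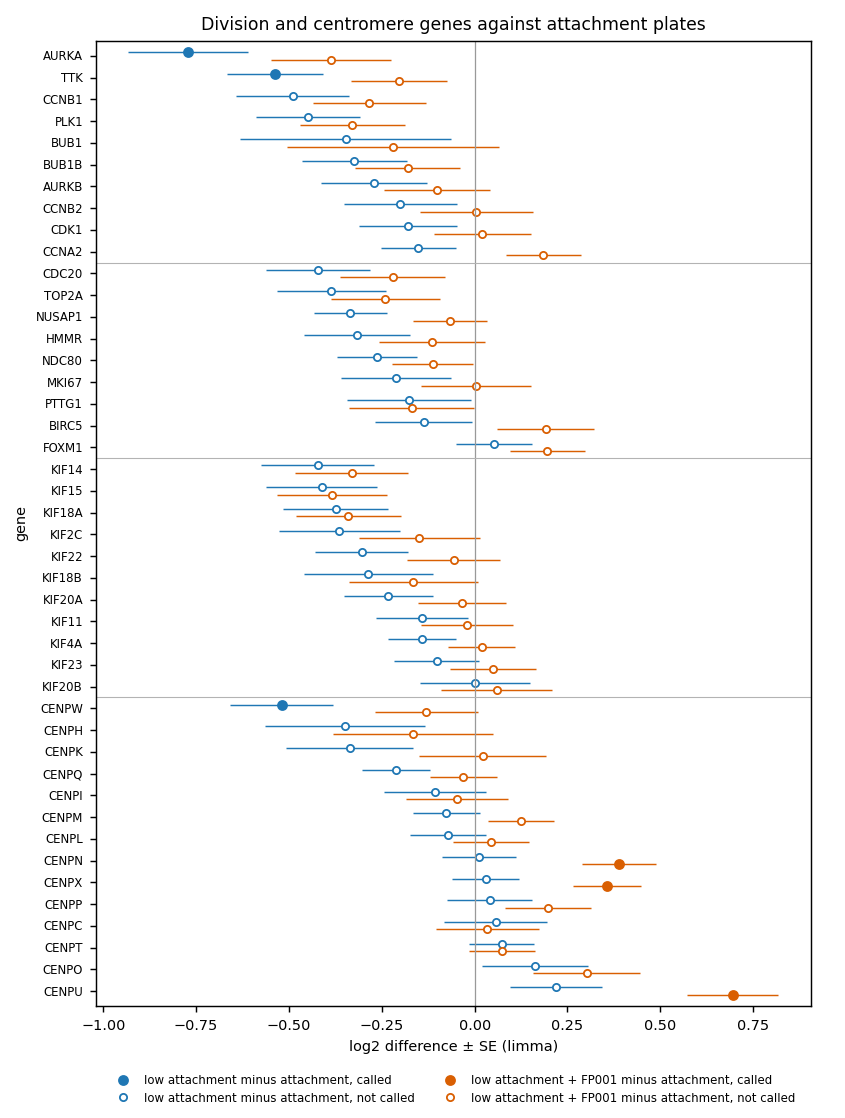
Points give the log2 difference of each division and centromere gene from attachment, with SE from limma as bars, without FP001 (blue) and with FP001 (orange); filled points were called. AURKA, TTK and CENPW are filled on the left for low attachment, and CENPU, CENPN and CENPX on the right for FP001.

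Leaving out low-attachment replicate 1 brought the medians to -0.16 for kinases and cyclins, -0.15 for spindle and proliferation genes and -0.15 for division kinesins, so each group's median stayed below 0 at a smaller size. Low-attachment replicate 1 was the lowest of its group for all 30 genes of these 3 groups. FP001 replicate 1 was the lowest of its own group for 26 of the 30 (86.7%, against 37.0% of all genes). The mean deviation of the 30 genes was 0.07 and 0.23 on the attachment arrays, -0.40, 0.02 and -0.04 on low attachment, and -0.10, 0.11 and 0.11 with FP001. The 21 tested DNA replication genes were at -0.40 on the same low-attachment array. The part that array plays in the group medians was measured only by leaving it out.

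In the constitutive centromere network, 7 of 14 genes were below 0 on low attachment, the median log2 difference was -0.03, and 1 gene fell (background 5.76%). CENPW is the histone-fold partner of CENPT, which binds centromeric DNA. It read 94.6 and 109 on the attachment arrays, 63.1, 79.8 and 70.4 on low attachment, and 90.6, 82.2 and 107 with FP001. Low attachment lay below attachment with no overlap, and FP001 overlapped with attachment. The fall was -0.52 ± 0.14 (adjusted p = 0.0389, limma). It was not called without low-attachment replicate 1 (0.102), low-attachment replicate 3 (0.0853), attachment replicate 2 (0.0982) or attachment replicate 3 (0.215).

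CENPH and CENPK, which form one subcomplex with CENPI, were low mainly on low-attachment replicate 1. CENPH read 90.4 and 87.3 on the attachment arrays, 47.0, 82.1 and 87.7 on low attachment, and 83.1, 75.6 and 79.1 with FP001, and CENPK read 170.4 and 192 on the attachment arrays, 107, 165 and 166 on low attachment, and 174, 183 and 195 with FP001. Their differences on low attachment were -0.35 ± 0.22 and -0.34 ± 0.17, and neither was called (adjusted p = 0.334 and 0.241, limma). CENPI, of the same subcomplex, differed by -0.11. CENPQ, of the CENPO subcomplex, differed by -0.21 ± 0.09 (adjusted p = 0.169, limma).

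With FP001, the comparison against attachment called 6 of the 71 genes: CENPU, CENPN, CENPX and KIF1C rose, and KIF13A and KIF27 fell. The share of 8.45% stands beside a background of 19.5% of all genes tested (8.08% higher, 11.4% lower). The same 2 attachment arrays serve this comparison and the one above, so they are not independent. The median over the 71 genes was -0.03 (all genes 0.02), and 32 of 71 were above 0 (45.1%, against 52.5% of all genes). The FP001 arrays all lay above both attachment arrays for 13 genes (18.3%, background 26.5%) and below both for 16 (22.5%, background 26.2%). Low-attachment replicate 1 enters this comparison through the shared estimate of the spread and the choice of genes tested, not through a group mean. Without it 11 were called (15.5%, beside 21.2% of the 10854 genes tested), AURKA, PLK1, KIF14, KIF15 and KIF18A being added as lower. Without attachment replicate 2 the median over the 71 genes was -0.09 (all genes 0.02). Without attachment replicate 3 it was 0.01 (all genes 0.01). Fewer genes were called in both fits, among all genes tested too, but each leaves 1 attachment array. With all 8 arrays, kinases and cyclins had a median of -0.19, spindle and proliferation genes -0.11, and division kinesins -0.06. These 3 groups of 10, 9 and 11 genes had no call, and 2, 0 and 2 genes were lower at an unadjusted p under 0.05 in limma. Of all genes tested, 18.7% were lower at that threshold. The centromere network had a median of 0.06, with 10 of 14 genes above 0 and 3 called higher.

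CENPU, a subunit of the CENPO subcomplex that brings PLK1 to kinetochores, read 89.8 and 106 on the attachment arrays, 102, 128 and 112 on low attachment, and 169, 159.6 and 147 with FP001. The FP001 arrays were all above the other 5. The rise against attachment was 0.70 ± 0.12, or 1.62-fold (adjusted p = 0.00428, limma). Leaving out attachment replicate 2 ended the call (adjusted p = 0.0568, limma).

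CENPN reads the CENPA nucleosome directly, together with CENPL. Its intensity was 338 and 326 on the attachment arrays, 297, 367 and 344 on low attachment, and 444, 446 and 415 with FP001, and the FP001 arrays again lay above the other 5. The rise was 0.39 ± 0.10 (adjusted p = 0.0233, limma), while low attachment alone gave 0.01 ± 0.10. The call was lost without attachment replicate 2 (adjusted p = 0.0980), attachment replicate 3 (0.109), FP001 replicate 1 (0.0564) or FP001 replicate 2 (0.0670) in limma.

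CENPX (MHF2), which pairs with CENPS in the network and in DNA repair, read 476 and 488 on the attachment arrays, 507, 482 and 486 on low attachment, and 681, 564 and 612 with FP001. The attachment and low-attachment arrays spanned 476 to 507, and all FP001 arrays stood above them. The rise was 0.36 ± 0.09 (adjusted p = 0.0225, limma). The call was lost when attachment replicate 2 (adjusted p = 0.128, limma), attachment replicate 3 (0.0787) or FP001 replicate 1 (0.0566) was left out. Its promoter window holds CCAAT 5 times and no TTTGAA.

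The other subunits were not called in either comparison. CENPO differed from attachment by 0.30 ± 0.14 with FP001, CENPP by 0.20 ± 0.12 and CENPM by 0.12 ± 0.09. CENPC, the scaffold of the inner kinetochore, differed by 0.03, CENPT by 0.07 and CENPL by 0.04. CENPA itself, the histone variant, is counted apart from the network: it read 193, 165 and 175 on average on attachment, low attachment and FP001, and was not called.

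**Figure D4:**
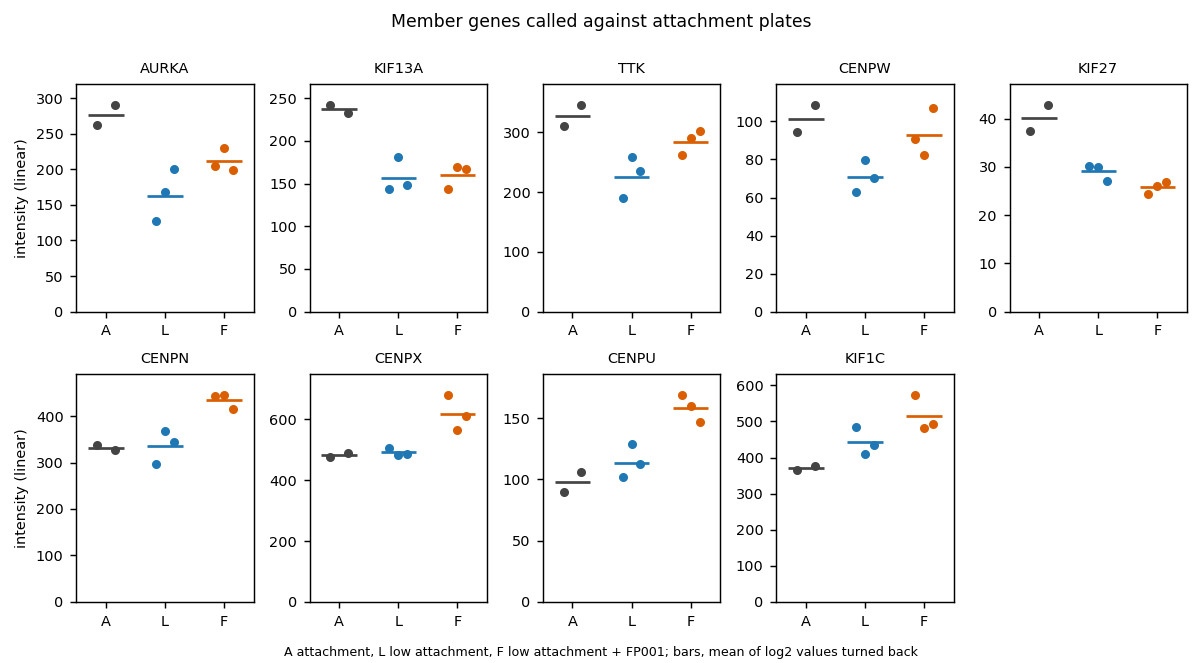
Linear intensity on each of the 8 arrays for the 9 genes called against attachment in either comparison; points are arrays, bars are means of the log2 values turned back, and axes start at 0. AURKA, TTK and CENPW are low on low attachment and nearer to attachment with FP001, KIF13A and KIF27 are low in both low-attachment groups, and CENPN, CENPX and CENPU are highest with FP001.

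The transport kinesins were split in sign: of 21 tested, 10 were below 0 on low attachment and 10 with FP001, with medians of 0.07 and 0.03. KIF13A, an endosomal motor that carries cargo to the cell surface and recycling endosomes, fell in both comparisons. It read 242 and 232 on the attachment arrays, 144, 181 and 148 on low attachment, and 144, 169 and 167 with FP001, and both attachment arrays were above the other 6. The fall was -0.60 ± 0.12 without FP001 and -0.57 ± 0.12 with it (adjusted p = 0.0116 and 0.00931, limma). Leaving out low-attachment replicate 1 kept the first call (adjusted p = 0.0298, limma), and leaving out an attachment array ended it (0.0930 without replicate 2, 0.0620 without replicate 3). The second was lost without attachment replicate 2 (0.0794).

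KIF27, a kinesin with a role in cilia, also fell in both. Its probe set was dim: 37.5 and 42.9 on the attachment arrays, 30.3, 30.1 and 27.0 on low attachment, and 24.5, 26.1 and 26.9 with FP001. Attachment lay above all other arrays, and the differences were -0.47 ± 0.12 and -0.64 ± 0.12 (adjusted p = 0.0378 and 0.00635, limma). The first was not called without any 1 of the attachment or low-attachment arrays, with adjusted p from 0.0677 to 0.207, nor without FP001 replicate 2 (0.0549). The second was lost without attachment replicate 3 (0.0552). The other 2 probe sets of KIF27 stayed between 2.38 and 7.03, below the array median on all arrays, with log2 differences of opposite sign (0.24 and -0.15 without FP001), so the gene rests on 1 of 3 probe sets.

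KIF1C, a motor that moves vesicles and integrins, rose with FP001. It read 365 and 376 on the attachment arrays, 484, 410.4 and 434 on low attachment, and 574, 482 and 494 with FP001, and every low-attachment array of either kind lay above both attachment arrays. The rise was 0.48 ± 0.10 (adjusted p = 0.0108, limma), and the difference without FP001 was 0.25 ± 0.10 (adjusted p = 0.145, limma). The rise was not called without attachment replicate 2 (0.0836). KIF5B, the ubiquitous conventional kinesin, read 1469.5, 1634 and 1699 on average on attachment, low attachment and FP001. Its differences of 0.15 ± 0.08 and 0.21 ± 0.08 were not called, though both low-attachment groups lay above attachment.

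KIF12 was brightest on low attachment without FP001. It read 86.5 and 104 on the attachment arrays, 122, 127 and 115 on low attachment, and 98.1, 84.9 and 87.7 with FP001: low attachment was above both other groups, which overlapped. Its difference on low attachment was 0.36 ± 0.11 (adjusted p = 0.0659, limma), which missed the threshold. KIF19, a kinesin that shortens cilia, differed by 0.35 ± 0.12 with FP001 (adjusted p = 0.0656), and KIF3A, the motor of transport within cilia, by -0.28 ± 0.10 (0.0670). KIF21A, KIF3B and KIF3C were below 0 in both comparisons without a call. KIF1B has 2 probe sets of opposite sign on low attachment (-0.10 and 0.25), neither called. KIF4B is a near-identical copy of KIF4A, so the readings of both are uncertain. Among the remaining genes KIF2A, a microtubule depolymerase of the spindle poles, differed by -0.23, CENPV by 0.02, KIF2B by -0.07 and the pseudogene CENPBD2P by 0.12.

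Over the 3 groups together, limma's F-test called 10 of the 71 genes, or 14.1%, beside a background of 14.0%. Besides the 9 genes already called, it added KIF12 (adjusted p = 0.0313). The smallest values were for CENPU (0.00900) and KIF13A (0.0138). With either attachment array left out the calls became fewer, among all genes tested too, but 1 array was then left in that group. There were 5 calls (7.04%) without low-attachment replicate 3, beside 10.4% of all genes, and 5 without FP001 replicate 3, beside 11.9%. Without FP001 replicate 1 there were 6 (8.45%), beside 11.2%.

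The third comparison sets FP001 against normal medium on the same low-attachment plates. Without a replicate block limma called 0 of the 71 genes, beside a background of 0.11% (12 of 10916 genes). At an unadjusted p under 0.05, 14 were higher and 2 lower with FP001 (19.7% and 2.82%), beside 4.98% and 6.60% of all genes tested. Among the division genes, 10 of 10 kinases and cyclins, 9 of 9 spindle and proliferation genes, 11 of 11 division kinesins and 13 of 14 centromere network genes were above 0. Over all 71 genes, 57 were above 0 (80.3%, against 51.6% of all genes tested), with a median of 0.14 against 0.01. The FP001 arrays all lay above the low-attachment arrays for 12 genes (16.9%, background 8.48%) and below them for 3 (4.23%, background 9.01%). Low-attachment replicate 1 weighed on this: without it the median was 0.03, 43 of 71 genes were above 0, and 7 were higher and 1 lower at an unadjusted p under 0.05 (9.86% and 1.41%, all genes 4.39% and 6.24%). The groups then stood at 7 of 10 kinases and cyclins above 0 (median 0.06), 8 of 9 spindle and proliferation genes (0.07), 6 of 11 division kinesins (0.04) and 10 of 14 centromere network genes (0.11).

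Same-numbered arrays with and without FP001 deviated together from their group means (correlations over all genes of 0.483, 0.309 and 0.231 for numbers 1 to 3). Differently numbered ones gave -0.353 to 0.133. Deviations in a group sum to 0, so positive same-number values lower the differently numbered ones by construction. The numbers were taken to pair the arrays, which remains an assumption. Over the genes described here, low-attachment replicate 2 correlated more with FP001 replicate 3 (0.467) than with FP001 replicate 2 (0.302). The same-number value for 3 was 0.209, so for these genes the pairing is less certain for numbers 2 and 3. With the number as a block over the 8 arrays, limma called 2 genes higher, CENPN (adjusted p = 0.0433) and CENPX (0.0399), beside a background of 1.30%. On the 6 low-attachment arrays alone with the number as a block, a fit chosen after seeing the data, 8 of 71 were called (11.3%, background 4.27%). Of these, 7 rose (background 1.59%) and KIF12 fell (background 2.67%). The kinases and cyclins gave 2 (CCNA2, TTK), the spindle and proliferation genes 2 (BIRC5, NUSAP1), the centromere network 3 (CENPU, CENPN, CENPX) and the transport kinesins 1 (KIF12).

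The paired values show how far each pair carried these calls. CENPU was higher with FP001 by 0.73, 0.31 and 0.39 on the log2 scale in pairs 1, 2 and 3 (mean 0.48 ± 0.09, adjusted p = 0.0153, limma with replicate block). CENPN was higher by 0.58, 0.28 and 0.27 (adjusted p = 0.0161, limma) and CENPX by 0.43, 0.23 and 0.33 (0.0127). All 3 centromere genes were higher in every pair, with pair 1 showing the greatest gap.

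CCNA2 was higher by 0.44, 0.30 and 0.27 (adjusted p = 0.0101, limma with replicate block) and TTK by 0.47, 0.17 and 0.37 (0.0287). BIRC5 was higher by 0.46, 0.26 and 0.26 (0.0197) and NUSAP1 by 0.32, 0.22 and 0.27 (0.0197). NUSAP1 had the most even pairs of these genes. KIF12 differed by -0.32, -0.58 and -0.39 (adjusted p = 0.0175, limma), lower in every pair. AURKA differed by 0.70, 0.46 and -0.00, so pair 3 showed no gap, and it was not called (adjusted p = 0.0738). CENPW differed by 0.52, 0.04 and 0.60 and was not called (0.0725).

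**Figure D5:**
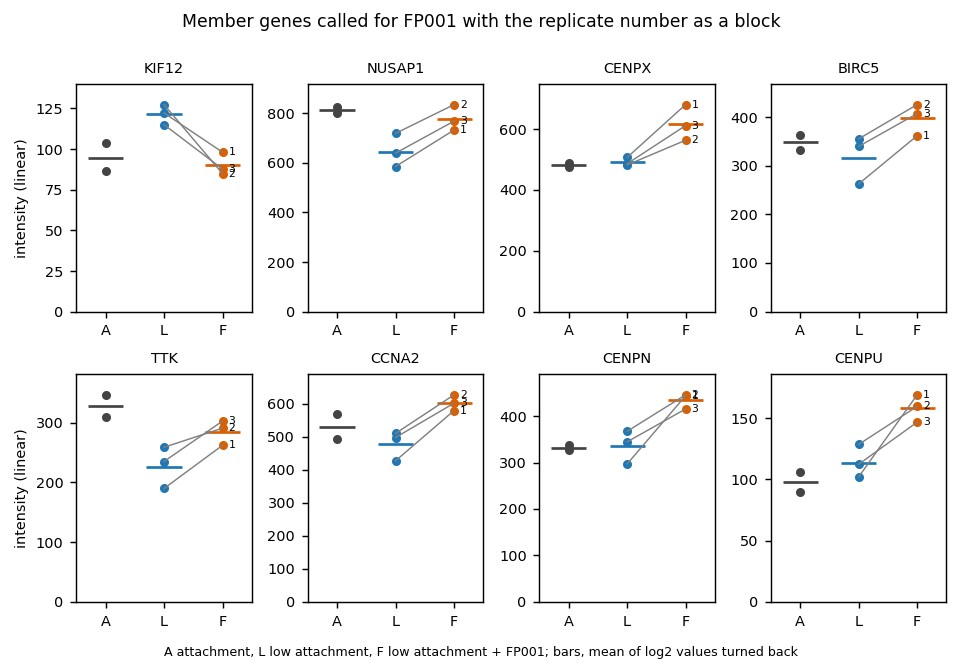
Linear intensity for the 8 genes called between FP001 and normal medium on low attachment with the replicate number as a block; lines join same-numbered arrays, numbers name the pair, bars are means of the log2 values turned back, and axes start at 0. All lines rise except for KIF12, whose 3 lines fall.

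Without pair 1, which holds the low-attachment array that stands apart, the same fit called 7 genes (background 3.65%), namely CENPU, CENPN, CENPX, CCNA2, NUSAP1, MKI67 and KIF12. BIRC5 (adjusted p = 0.0530) and TTK (0.0893) were lost. Without pair 2 there were 9 calls (background 3.75%), and KIF12 was lost (adjusted p = 0.0824). Without pair 3 there were 14 (background 8.76%). Block fits on low-attachment arrays alone have fewer residual degrees of freedom than the fit to all 8 arrays, and fewest with a pair left out. These counts are therefore weak checks. Of the 71 genes, 30 were higher with FP001 in all 3 pairs (42.3%, background 20.8%) and 6 were lower in all 3 (8.45%, background 20.7%). Per pair, 56, 40 and 51 of the 71 were higher (78.9%, 56.3% and 71.8%), with median differences of 0.16, 0.03 and 0.12. Over all genes 52.5%, 47.6% and 50.7% were higher, with medians of 0.013, -0.013 and 0.003.

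The neighbours of these genes in the same pathways were read from lists of textbook members. Over all genes tested, 4.31% rose and 5.76% fell on low attachment, and 8.08% and 11.4% with FP001 against attachment. The fit to low-attachment arrays alone with a replicate block is called the paired fit below. It called 1.59% of all genes higher and 2.67% lower. Of 15 tested kinetochore genes outside the rule, KNL1, the scaffold that recruits BUB1, fell in both comparisons with attachment (-0.58 ± 0.15 and -0.47 ± 0.15, adjusted p = 0.0309 and 0.0485, limma). SKA2, of the complex that couples kinetochores to microtubule ends, rose with FP001 (0.52 ± 0.10, adjusted p = 0.00596). In the paired fit ZWINT, SKA2 and SGO1 rose. The list's medians were -0.23 on low attachment, -0.01 with FP001 and 0.28 between FP001 and normal medium, where 15 of 15 genes were above 0. Without low-attachment replicate 1 they were -0.09, -0.01 and 0.08, with 10 of 15 genes above 0 in the last, and the call of KNL1 on low attachment was lost (adjusted p = 0.066, limma).

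Of 21 tested genes of the spindle and cytokinesis, DEPDC1 (-0.77 ± 0.16) and ECT2, the activator of RhoA at the cleavage furrow (-0.47 ± 0.11), fell on low attachment (adjusted p = 0.0147 and 0.0240, limma). These 2 falls stand beside 5.76% of all genes tested. With FP001 DEPDC1 fell (0.0334, background 11.4%) and CEP55, an abscission protein, rose by 0.43 ± 0.14 (0.0475, background 8.08%). In the paired fit CEP55, MASTL and PRC1 rose (background 1.59%), and 21 of 21 were above 0. Without low-attachment replicate 1, 17 of the 21 were above 0 between FP001 and normal medium, and ECT2 was not called on low attachment (adjusted p = 0.051, limma). Of 16 subunits and partners of the anaphase-promoting complex, ANAPC16 rose in both comparisons (0.54 ± 0.12 and 0.66 ± 0.12, adjusted p = 0.0177 and 0.00428, limma). The list's medians were -0.03 and 0.04, and the shares of all genes that rose were 4.31% and 8.08%. None of 10 tested condensin and cohesin genes was called by limma. At an unadjusted p under 0.05, 4 and 5 were lower without and with FP001 (all genes 14.4% and 18.7%). SMC3, a cohesin ring subunit, read 958, 853 and 782 on average on attachment, low attachment and FP001.

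Regulators that act on such promoters moved in both directions. Of 16 tested DREAM and E2F genes, MYBL1 fell on low attachment (-0.65 ± 0.12, adjusted p = 0.00788, limma) and LIN54, the DREAM subunit that contacts the CHR, rose (0.34 ± 0.09, 0.0395), a call lost without low-attachment replicate 1 (adjusted p = 0.094). With FP001, 4 rose (MYBL2, TFDP1, E2F1 and LIN54, beside 8.08% of all genes) and 3 fell (MYBL1, LIN37 and RBL2, beside 11.4%). MYBL2 (B-MYB), the partner of MuvB at G2 and M phase genes, rose by 0.58 ± 0.12 (adjusted p = 0.0100, limma). It was also called in the paired fit (0.00779), where LIN37 fell. None of the 5 listed cyclin-dependent kinase inhibitors was named on the array, so they were not analysed here.

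Of 21 tested DNA replication genes, CCNE2 (cyclin E2) and RRM2 (a ribonucleotide reductase subunit) rose in both comparisons with attachment, by 0.93 ± 0.14 and 0.72 ± 0.19 without FP001 and 1.25 ± 0.14 and 1.02 ± 0.19 with it. Their adjusted p-values in limma were 0.00374 and 0.0361, then 0.000502 and 0.00508. The shares of all genes that rose were 4.31% and 8.08%. PCNA, the sliding clamp of DNA polymerase, fell on low attachment (-0.43 ± 0.12, adjusted p = 0.0442). The other genes of the list had lower readings in most cases, and 19 of 21 were below 0 on low attachment (median -0.21). Between FP001 and normal medium 21 of 21 were above 0 (median 0.26), against 51.6% of all genes. The paired fit called 9 higher, among them TYMS and MCM10, beside 1.59% of all genes tested. The list shared the low values of the division genes on low-attachment replicate 1. Without that array 14 of 21 were below 0 on low attachment (median -0.09), and 21 of 21 were still above 0 between FP001 and normal medium (median 0.17).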

How the data were processed

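Gene expression was measured on 9 arrays of A549 cells, 3 per condition. The deposited values are linear intensities, 1 per probe set, produced with MAS5 per the submitters' processing notes (no version or settings are given there). The number of arrays limits the precision. Genes were named from the platform annotation (16098 of 53617 probe sets carry 1 gene, 37519 have none), which can be old. Intensities were turned to log2 with no further normalization. Probe sets at or above the array median on at least 3 of 8 arrays were kept, and the one with the highest mean stood for its gene, which gave 10916 genes. Of the 71 tested genes described here, 70 were at or above it on all 8 arrays and KIF26B on fewer.

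limma 3.58.1 in R 4.3.3 was fitted to 3 group means (lmFit, eBayes with trend, 5 residual degrees of freedom), and checked on simulated data. Tests are two-sided with Benjamini-Hochberg adjustment. Same-numbered low-attachment arrays with and without FP001 correlated in their deviations over all genes (0.483, 0.309 and 0.231, against -0.353 to 0.133 for differently numbered ones). Deviations in a group sum to 0, so these 2 sets of values are not independent. The attachment numbers gave -0.205 and -0.256 for number 2, and 0.138 and 0.00762 for number 3. With 2 attachment arrays the deviations mirror each other, so these values cannot settle a pairing. A block was therefore used beside the result for FP001 against normal medium alone. Named are the genes called by any test, the 8 largest differences per comparison, the spelled-out genes, the brightest of each group and up to 4 called genes per pathway list. Some further genes were named for their role. The genes and lists were chosen with earlier results of these data known. The alternatives cover normalization, an added constant, filters, the choice of probe set, all 9 arrays, the trend, a replicate block and leaving out each array.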

Additional observations from a re-analysis of the deposited data

How the results depend on the processing

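With all 9 arrays, which adds attachment replicate 1, limma called 0 genes in each comparison with attachment and 0 by the F-test, also at an unadjusted p under 0.05 in the 2 comparisons. The medians became 0.72 without FP001 and 0.90 with it, beside 0.70 and 0.69 for all genes, and AURKA (0.72), CENPW (1.21), KIF13A (0.93 without FP001, 0.95 with it) and KIF27 (0.12 without FP001) turned sign. With a replicate block over the 8 arrays, 8 genes were called on low attachment against attachment (11.3%, beside 12.6% of all genes). The F-test then called 16 (22.5%, beside 18.7%), and FP001 against normal medium gave 2 (2.82%, beside 1.30%). On low-attachment arrays alone with the block, a choice made after seeing the data, 8 were called (11.3%, beside 4.27% of all genes). After quantile normalization 9 were called (12.7%, beside 3.71%). Fitting the 2 groups alone called 3 on low attachment against attachment (4.23%, beside 8.50% of all genes), and this alternative has no F-test. Leaving out 1 low-attachment array, with or without FP001, gave 3 to 7 calls for low attachment and 4 to 11 for FP001 against attachment. The F-test then gave 5 to 9 (7.04% to 12.7%, all genes 8.88% to 14.3%). FP001 against normal medium gave 0 without a block (all genes 0.0% to 0.0829%). With the block on low-attachment arrays alone, a whole pair (2 arrays) was left out at a time. This gave 7 to 14 (9.86% to 19.7%, all genes 3.65% to 8.76%). Leaving out an attachment array gave fewer calls against attachment and by the F-test, but left 1 array in that group. Of 121 values for the 11 calls under settings that leave out no array, 105 kept direction and side of the threshold, 11 lost the call and 5 turned sign. Quantile normalization, median centring, an added 16, both other filters, the mean of probe sets and no trend left the counts of called genes within 1.5 times. Quantile normalization moved the counts at an unadjusted p under 0.05 from 20 to 12 lower on low attachment (all genes from 14.4% to 11.3%). With FP001 against attachment they moved from 7 higher and 8 lower to 12 higher and 2 lower. All genes moved in the same direction there, from 16.5% higher and 18.7% lower to 21.5% higher and 14.9% lower. The main limits are the 2 attachment arrays, the low values on low-attachment replicate 1, and probe sets near the array median such as KIF27 and PTTG1.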
